A study of Mus musculus with 28 samples.

Results

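The glutamate and GABA receptor subunits of the mouse brain were followed in hemibrain RNA of 28 mice in 4 groups of 7. Members were the protein-coding genes of the deposited count table whose symbols name a subunit of an AMPA, kainate, NMDA or delta receptor, a metabotropic glutamate receptor, or a GABA-A or GABA-B receptor. This gave 47 genes of the 53801 in the table, 22058 of which are protein-coding. Wildtype (WT) C57Bl/6J mice and double knockout (DKO) mice, which lack Grn and Tmem106b, received either AAV(L):bPGRN or isotonic saline into the tail vein at 6 weeks of age. The vector targets the liver and codes for human progranulin fused to 8D3, an antibody fragment against the mouse transferrin receptor, and was given at 1.3e+13 vector genomes per kg. Brains were taken 9 to 10 weeks later, at 15 to 16 weeks of age, and 1 hemibrain per mouse, with cerebellum and without the olfactory bulb, was ground to powder. The WT groups held 4 males and 3 females each, the DKO groups 3 males and 4 females, and each of the 4 labelled batches held mice of every group. The vector is aimed at a peripheral organ, the labels give no site of deletion for Grn, and a whole hemibrain mixes many regions and cell types.

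Glutamate opens AMPA, kainate and NMDA receptors, which are tetrameric cation channels at excitatory synapses, and also acts on metabotropic receptors, which signal through G proteins. GABA opens GABA-A receptors, pentameric chloride channels usually built from alpha and beta subunits with a gamma or delta subunit. It also acts on GABA-B receptors, obligate pairs of Gabbr1 and Gabbr2 that signal through G proteins. Several subunits are known for a restricted place in the brain. Gabra6 belongs to cerebellar granule cells, Grin2c is abundant in the cerebellum, Grm4 is high in granule cells, and Gabra5 and Grik4 are known from the hippocampus.

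Library totals ran from 1164637 to 2389815 counts of 3' tags, which are read near the poly(A) end of a transcript, so that counts do not scale with transcript length. Tmem106b checked the labels and stood at 75.6 to 149 CPM (counts scaled to a common library size) in the WT libraries and 6.59 to 20.1 CPM in the DKO libraries. Neuronal markers were high in all groups, with a summed level of 9 markers between 4377 and 6150 CPM. Some powders differed in regional content. A cerebellar score, the mean log2 level of 8 tested cerebellar markers relative to WT saline, reached -2.35 for replicate 6 of WT saline and -1.54 for replicate 7 of WT AAV, where the summed level of the 10 markers was lowest, at 260 and 302 CPM, against medians of 947 and 1035 CPM in their groups. In DKO saline replicate 2 the striatal score was -1.45 and the cortical and hippocampal excitatory score -1.18. Several subunit results are given below with and without some or all of these 3 libraries. A wider rule marked 14 of the 28 libraries as atypical in regional content. They were 3 of WT saline, 5 of WT AAV, 4 of DKO saline and 2 of DKO AAV. The rule took a cerebellar or striatal score under -1, an olfactory bulb score over 0.75, or over 500 counts of the pituitary markers Prl and Gh. The olfactory bulb score reached 1.85 (WT AAV replicate 7), and Prl and Gh reached 3490 counts (DKO saline replicate 3). The share of mitochondrial tags also differed between genotypes, with medians of 16.2% (DKO saline), 15.5% (DKO AAV), 20.3% (WT saline) and 19.0% (WT AAV). The part of region, cell type and RNA quality in the differences below was not tested unless a value is given. In bulk tissue, fewer cells of a type and less RNA per cell cannot be told apart.

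Of the 47 subunit genes, 36 had enough counts to be tested. The other 11 were Grik1, Grin2d, Grin3b, Grm6, Gabrb2, Gabre, Gabrp, Gabrq and Gabrr1, Gabrr2 and Gabrr3, whose mean levels were at most 5.1 CPM. Grm6, a receptor known from retinal bipolar cells, and Gabrp had 0 counts in all 28 libraries, and Gabrr3 had 1 count. Gabrb2, a major beta subunit of the brain, had 43 counts in total and a mean of 1.03 CPM. For Gabrb2 (chromosome 11, 42419757 to 42629028, plus strand, GRCm38), the RefSeq gene ends 3563 bases beyond the table's gene model, so tags at that end lie outside the counted gene. The level of Gabrb2 is therefore not comparable with that of Gabrb1. Grik2 is the other member whose RefSeq end lies more than 1000 bases beyond the model, by 1153 bases.

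**Figure D1:**
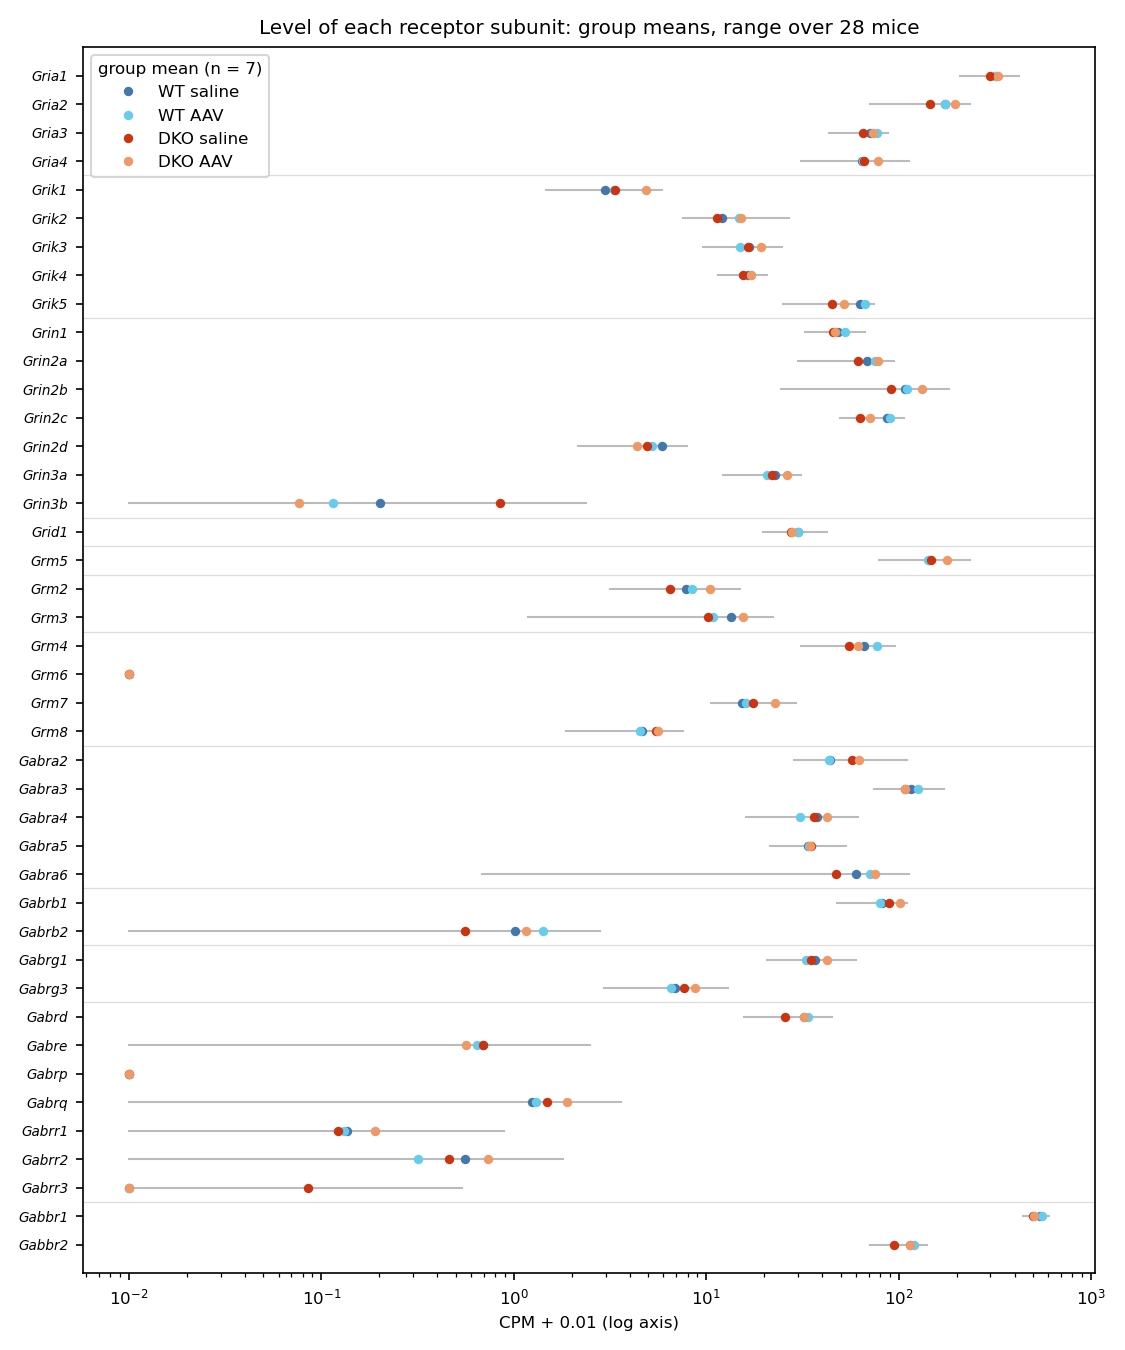
Level of 42 of the subunit genes in CPM plus 0.01 on a log axis, with the mean of each group of 7 mice as a point and the range over 28 mice as a grey line; horizontal lines separate the receptor classes. Gabbr1 is highest, at a mean of 526 CPM, Grm6 and Gabrp lie at the left edge with 0 counts, and Gabra6 has a wide range, from 0.673 to 114 CPM.

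Gabbr1, the GABA-binding subunit of the GABA-B receptor, was the highest member at a mean of 526 CPM, with a range of 444 to 604 CPM over the 28 mice. Gria1 led the AMPA class at a mean of 316 CPM. Gria2, which makes AMPA receptors nearly impermeable to calcium, followed at 173 CPM. Grm5 stood at 153 CPM, Grin2b at 110 CPM, Grik5 at 56.7 CPM and Grid1 at 28.9 CPM, each the highest tested member of its class or subclass. Summed over all members, the level in the WT saline group was 2825, 2893 and 3119 CPM (lowest, median and highest mouse). In the DKO saline group the sum was 2187, 2821 and 3119 CPM, and in the DKO AAV group 2961, 3215 and 3297 CPM. The WT AAV group stood at 2858, 2948 and 3247 CPM. All 4 groups overlapped, and the lowest sum was that of DKO saline replicate 2.

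Several of these members, with Grm3 and Grm4, are given here by group, as the lowest, median and highest mouse. Gabbr1 stood at 469, 552 and 598 CPM in WT mice given saline and at 487, 579 and 604 CPM in those given the vector, and at 448, 488 and 580 and 444, 495 and 566 CPM in the DKO mice given saline and vector. Gria1, the AMPA subunit known from synaptic plasticity, stood at 281, 323 and 370 CPM in WT mice given saline and at 240, 295 and 422 CPM in those given the vector, and at 208, 279 and 384 and 269, 310 and 382 CPM in the DKO mice given saline and vector. Both were high in every mouse and their groups overlapped. Grm5, a group I metabotropic receptor that acts through phospholipase C, stood at 114, 129 and 235 CPM in WT mice given saline and at 118, 130 and 201 CPM in those given the vector, and at 78.6, 153 and 205 and 153, 179 and 192 CPM in the DKO mice given saline and vector. Grin2b, an NMDA subunit known from early development and the forebrain, stood at 90.5, 94.2 and 182 CPM in WT mice given saline and at 95.3, 104 and 138 CPM in those given the vector, and at 24.4, 87.2 and 148 and 115, 132 and 148 CPM in the DKO mice given saline and vector. For Grm5 and Grin2b the highest of all 28 values was WT saline replicate 6, the library of lowest cerebellar score. Grid1, a delta receptor, stood at 24.7, 27.2 and 42.1 CPM in WT mice given saline and at 21.1, 27.9 and 42.2 CPM in those given the vector, and at 20.1, 28.7 and 37.9 and 19.7, 27.2 and 33.5 CPM in the DKO mice given saline and vector. Its groups overlapped too. Grm3 stood at 9.42, 13.5 and 22.1 CPM in WT mice given saline and at 5.86, 9.62 and 17.0 CPM in those given the vector, and at 1.18, 11.1 and 15.3 and 8.99, 17.0 and 18.6 CPM in the DKO mice given saline and vector. Grm4 stood at 30.9, 60.7 and 91.2 CPM in WT mice given saline and at 35.4, 75.5 and 96.2 CPM in those given the vector, and at 38.5, 51.8 and 75.5 and 43.4, 59.8 and 82.5 CPM in the DKO mice given saline and vector. The lowest Grm3 value was that of DKO saline replicate 2, and the lowest Grm4 values were those of the 2 mice of low cerebellar score.

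The levels of Gabra6, Grm4 and Gria4 correlated with the cerebellar marker score across mice. Correlations of the log2 level of 36 subunits with 6 region scores made 216 pairs, of which 6 passed after Benjamini-Hochberg adjustment over all pairs in both Pearson and Spearman permutation tests. Gabra6 stood at 0.673, 68.5 and 90.5 CPM (lowest, median and highest) in WT saline and at 9.49, 75.5 and 114 CPM in WT AAV. It stood at 25.1, 50.6 and 79.7 CPM in DKO saline and at 46.3, 77.9 and 98.0 CPM in DKO AAV. The lowest values were those of the 2 mice with a low cerebellar score, and the 4 groups overlapped. Its correlation with the cerebellar score over 28 mice had r = 0.968 and rho = 0.914, with an adjusted permutation p of 0.00054 for r and 0.00072 for rho, and r was 0.903 without those 2 mice. Grm4, a presynaptic receptor that lowers transmitter release, had r = 0.804 and rho = 0.727, and r = 0.735 without them, with an adjusted permutation p of 0.00054 for r over 28 mice. Gria4, an AMPA subunit, had r = 0.769 and rho = 0.75, and r = 0.696 without them, with the same adjusted permutation p of 0.00054. Grin2c had r = 0.516 and rho = 0.48, and its adjusted permutation p for rho was 0.129. Within groups (each value minus its group mean) r was 0.771 for Grin2c, with an adjusted permutation p of 0.00072. Gabrd had r = 0.345 with the same score, with an adjusted permutation p of 0.251. Another 2 relations that passed were with the cortical and hippocampal excitatory score. Grm5 had r = 0.813 and rho = 0.795, and r = 0.741 without the 2 mice farthest from that score's median, and Grin2b had r = 0.853, rho = 0.665 and r = 0.593 without them.

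**Figure D2:**
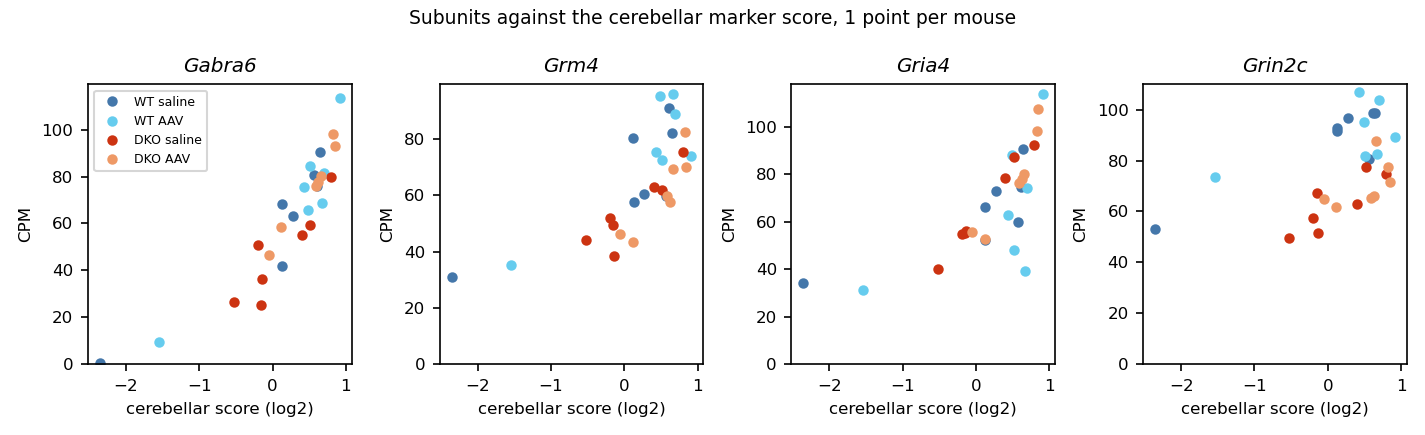
Level of Gabra6, Grm4, Gria4 and Grin2c in CPM against the cerebellar marker score (log2, relative to WT saline), 1 point per mouse, coloured by group. The 2 mice at scores of -2.35 and -1.54 are the lowest for Gabra6, and most DKO points lie below the WT points of like score for Grin2c.

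Loss of Grn and Tmem106b was first assessed between the saline groups. Of 36 tested subunits, 3 were lower in the DKO than in the WT mice given saline and 0 were higher, against 3.27% lower and 3.62% higher, 6.9% in all, among the 11123 genes tested. The median log2 change was -0.12 over the subunits and 0.00 over all genes, and 11 of 36 subunits had a positive change. In edgeR's quasi-likelihood test 5 subunits (13.9%) had an unadjusted p under 0.05, against 20.9% of all genes. With library totals as scaling the median over the subunits was -0.0048, with 18 of 36 positive, beside a median of 0.12 over all genes. Without the 3 libraries of low regional score it was -0.0059, with 16 positive, and without DKO saline replicate 2 it was -0.08, with 14 positive. The 3 that fell with all mice were Grik5, Grin2c and Gabbr2, each in another class. Without the 3 libraries of low regional score the subunits called were Grin2c, Grm4 and Gabra6, all lower, beside 690 of 11148 genes. With the cerebellar and striatal scores as terms they were Grik5, Grin2c, Grm4 and Gabbr2, all lower, beside 954 of 11123 genes.

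Grik5 (ENSMUSG00000003378, chromosome 7, 25009849 to 25072346, minus strand, GRCm38) encodes GluK5, a high-affinity kainate subunit that needs a partner to form a channel. It stood at 52.5, 64.0 and 71.3 CPM in WT saline and at 25.2, 48.3 and 53.2 CPM in DKO saline (lowest, median and highest). Of the 7 DKO saline mice, 5 lay below every WT saline mouse and 0 above the WT saline median. The log2 change was -0.52 ± 0.14 (SE, 7 mice per group), with an adjusted p of 0.0221 in edgeR's quasi-likelihood test. Without DKO saline replicate 2, the mouse of low striatal and cortical score, it was -0.35, with an adjusted p of 0.125 in the same test. With the cerebellar and striatal scores as terms it was -0.47, with an adjusted p of 0.00973, the lowest of the 42 alternatives. Library totals in place of TMM scaling gave -0.40, with an adjusted p of 0.0603. The call was also lost without the 3 libraries of low regional score, without batch 2 or 3, and with only the compared groups fitted. Within batches the change of Grik5 was -0.33, -1.33, -0.48 and -0.16 in batches 1 to 4. DKO saline replicate 2 is the only DKO saline mouse of batch 2. Grik5 made up a median of 57.2% of kainate tags in WT saline and 48.1% in DKO saline.

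Grin2c (ENSMUSG00000020734, chromosome 11, 115249169 to 115267243, minus strand) encodes GluN2C, an NMDA subunit that gives channels with weaker magnesium block. It stood at 53.1, 92.7 and 98.8 CPM in WT saline and at 49.5, 62.9 and 77.6 CPM in DKO saline. The lowest WT saline value was that of replicate 6, the library of low cerebellar score, and the next was 80.8 CPM, so that the 6 other WT saline mice lay above all DKO saline mice. The log2 change was -0.49 ± 0.13 (SE), with an adjusted p of 0.0183 in edgeR's quasi-likelihood test. With the 2 region scores as terms it was -0.54, with an adjusted p of 0.000309, and without the 3 libraries of low regional score it was -0.71, with an adjusted p of 0.000139. Within batches it was -0.95, -0.50, -0.88 and -0.02 in batches 1 to 4, and replicate 6 of WT saline is in batch 4. The call was lost when DKO saline replicate 1 or 3 or WT saline replicate 1 was left out, at changes of -0.43, -0.42 and -0.45 and adjusted p-values of 0.0593, 0.0693 and 0.0594. Grin2c lies 12.8 Mb from Grn on the same chromosome.

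Gabbr2 (ENSMUSG00000039809, chromosome 4, 46662305 to 46991873, minus strand) encodes the GABA-B subunit that couples to G proteins. It stood at 105, 108 and 140 CPM in WT saline and at 70.8, 105 and 111 CPM in DKO saline. Of the 7 DKO saline mice, 4 lay below every WT saline mouse and 3 above the WT saline median. The log2 change was -0.33 ± 0.10 (SE), with an adjusted p of 0.0339 in edgeR's quasi-likelihood test, and -0.25 with an adjusted p of 0.164 without DKO saline replicate 2. Its partner Gabbr1 had a log2 change of -0.12 ± 0.08 (SE) and was not called. Leaving out DKO saline replicate 3 or 7, or WT saline replicate 2, 4, 5 or 7, also ended the call, at adjusted p-values from 0.058 to 0.0897, as did library totals, at -0.22 and 0.167. Within batch 1 the change of Gabbr2 was 0.07, opposite to the other 3 batches.

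The promoter windows of these 3 genes and of Gabra6 are shown because they are the subunits on which the genotype and the cerebellar results turn. The sequences are from RefSeq (GRCm38.p6), which held a promoter for 32 of the 47 members, and run from 250 bases before to 50 bases after the start site on the gene's strand. Capitals mark 2 motifs on either strand, the short site of nuclear factor I (TTGGC) and the GC box (GGGCGG).
Gabra6, chr11:42321023-42321322, minus strand: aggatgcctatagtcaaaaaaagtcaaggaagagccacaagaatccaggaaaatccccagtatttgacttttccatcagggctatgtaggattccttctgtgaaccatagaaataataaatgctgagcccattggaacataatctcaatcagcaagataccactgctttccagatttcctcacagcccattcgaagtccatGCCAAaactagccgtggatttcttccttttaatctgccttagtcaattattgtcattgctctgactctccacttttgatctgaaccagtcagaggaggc
Grin2c, chr11:115267194-115267493, minus strand: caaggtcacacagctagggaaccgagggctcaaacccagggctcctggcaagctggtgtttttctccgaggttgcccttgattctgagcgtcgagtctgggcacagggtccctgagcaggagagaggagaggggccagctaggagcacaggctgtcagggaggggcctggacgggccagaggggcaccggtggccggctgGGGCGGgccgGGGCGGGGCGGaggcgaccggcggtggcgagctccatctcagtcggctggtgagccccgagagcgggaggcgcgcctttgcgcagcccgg
Grik5, chr7:25072320-25072619, minus strand: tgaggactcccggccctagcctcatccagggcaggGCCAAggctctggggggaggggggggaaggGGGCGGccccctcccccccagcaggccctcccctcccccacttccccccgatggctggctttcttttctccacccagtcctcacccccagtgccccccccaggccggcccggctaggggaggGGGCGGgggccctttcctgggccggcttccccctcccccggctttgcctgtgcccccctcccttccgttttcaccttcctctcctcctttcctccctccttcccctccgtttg
Gabbr2, chr4:46991665-46991964, minus strand: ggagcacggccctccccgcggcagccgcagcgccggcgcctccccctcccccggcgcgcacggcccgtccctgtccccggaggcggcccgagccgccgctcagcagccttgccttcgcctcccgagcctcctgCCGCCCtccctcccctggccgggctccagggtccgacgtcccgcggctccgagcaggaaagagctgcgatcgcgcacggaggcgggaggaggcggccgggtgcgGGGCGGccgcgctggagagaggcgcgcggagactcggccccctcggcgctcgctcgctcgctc

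The nuclear factor I site was present in 46.7% of 32851 RefSeq promoters of the same length and in 18 of the 39 promoter entries of subunit genes. It occurred 1 time in Gabra6, 49 bases before the start site, and 1 time in Grik5, 215 bases before it. The GC box was present in 35.7% of all promoters and in 19 of the 39 member entries, and occurred 3 times in Grin2c, 2 times in Grik5 and 2 times in Gabbr2. The windows differed in base composition, with 42.0% G and C in Gabra6 and 80.3% in Gabbr2. The other motifs searched on both strands were the TATA box (TATAAA), the cAMP response element (TGACGTCA), the E-box (CANNTG) and the nuclear factor I palindrome, and none of them is in these 4 windows. They are found in 13.6%, 1.79%, 72.3% and 0.0365% of all promoters, and no match overlapped another motif in the 4 windows.

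**Figure D3:**
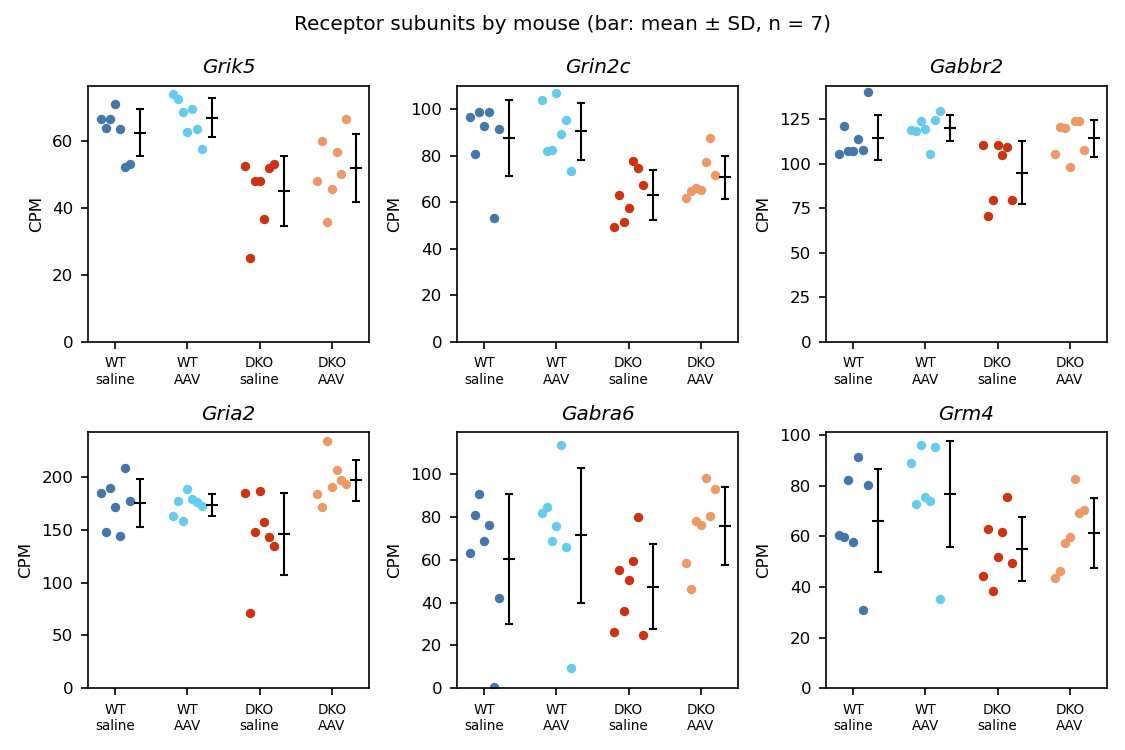
Level in CPM of Grik5, Grin2c, Gabbr2, Gria2, Gabra6 and Grm4 by mouse and group, with the mean ± SD of 7 mice beside the points; the axes start at 0. Grik5 and Grin2c have lower means in both DKO groups than in either WT group, Gria2 is higher in DKO AAV than in DKO saline, and Gabra6 has 1 WT saline mouse at 0.673 CPM.

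The same genotype difference can be read in other mice, between the 2 groups given the vector, a comparison that was added after the values had been seen. Here 2 of 36 subunits were higher in DKO AAV than in WT AAV and 0 were lower, against 1.96% higher and 3.96% lower, 5.92% in all, among all genes tested. Grik5 stood at 57.8, 68.7 and 74.1 CPM in WT AAV and at 36.0, 50.3 and 66.7 CPM in DKO AAV. Of the 7 DKO AAV mice, 5 lay below every WT AAV mouse, the log2 change was -0.38 ± 0.14 (SE), and the adjusted p in edgeR's quasi-likelihood test was 0.0894. Grin2c stood at 73.4, 89.3 and 107 CPM in WT AAV and at 61.8, 65.9 and 87.5 CPM in DKO AAV. Again 5 of 7 DKO AAV mice lay below every WT AAV mouse, the log2 change was -0.37 ± 0.13 (SE), and the adjusted p was 0.0817. Both thus missed the threshold in the treated mice, and with the 2 region scores as terms both passed it, with adjusted p-values of 0.0065 for Grik5 and 0.00286 for Grin2c. Gabbr2 had a log2 change of -0.11 ± 0.10 (SE) there, with an adjusted p of 0.559.

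Giving the vector to DKO mice asked what changed with treatment in the mutant brain. Of 36 subunits, 2 were higher in DKO AAV than in DKO saline and 0 were lower, against 0.818% higher and 2.2% lower, 3.02% in all, among all genes tested. The median log2 change was 0.24 over the subunits and -0.00 over all genes, 34 of 36 subunits had a positive change, and 13 (36.1%) had an unadjusted p under 0.05, against 19.1% of all genes. The DKO saline group holds the library of low striatal and cortical score. Without it 0 subunits were called, beside 54 of 11208 genes. The median over the subunits was then 0.17, 31 were positive and 6 had an unadjusted p under 0.05. Neuronal markers were also at higher medians in the treated mice. The summed level of the 9 pan-neuronal markers had medians of 4713 CPM in DKO saline and 5502 CPM in DKO AAV, and that of 6 inhibitory neuron markers 741 and 879 CPM. The groups overlapped for both sums, and their part in the subunit changes was not tested.

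Gria2 (ENSMUSG00000033981, chromosome 3, 80681450 to 80802835, minus strand) stood at 70.8, 147 and 186 CPM in DKO saline and at 171, 194 and 234 CPM in DKO AAV. All 7 DKO AAV mice lay above the DKO saline median and 5 above every DKO saline mouse. The log2 change was 0.48 ± 0.13 (SE), with an adjusted p of 0.0311 in edgeR's quasi-likelihood test, and 0.32 with an adjusted p of 0.136 without DKO saline replicate 2. In the WT groups Gria2 stood at medians of 177 CPM with saline and 176 CPM with the vector. With the cerebellar and striatal scores as terms Gria2 was not called, with an adjusted p of 0.0786. Leaving out DKO AAV replicate 3, 4 or 5, or DKO saline replicate 3 or 7, also ended its call, at adjusted p-values from 0.0509 to 0.0735. The cerebellar score had medians of -0.14 in DKO saline and 0.62 in DKO AAV.

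**Figure D4:**
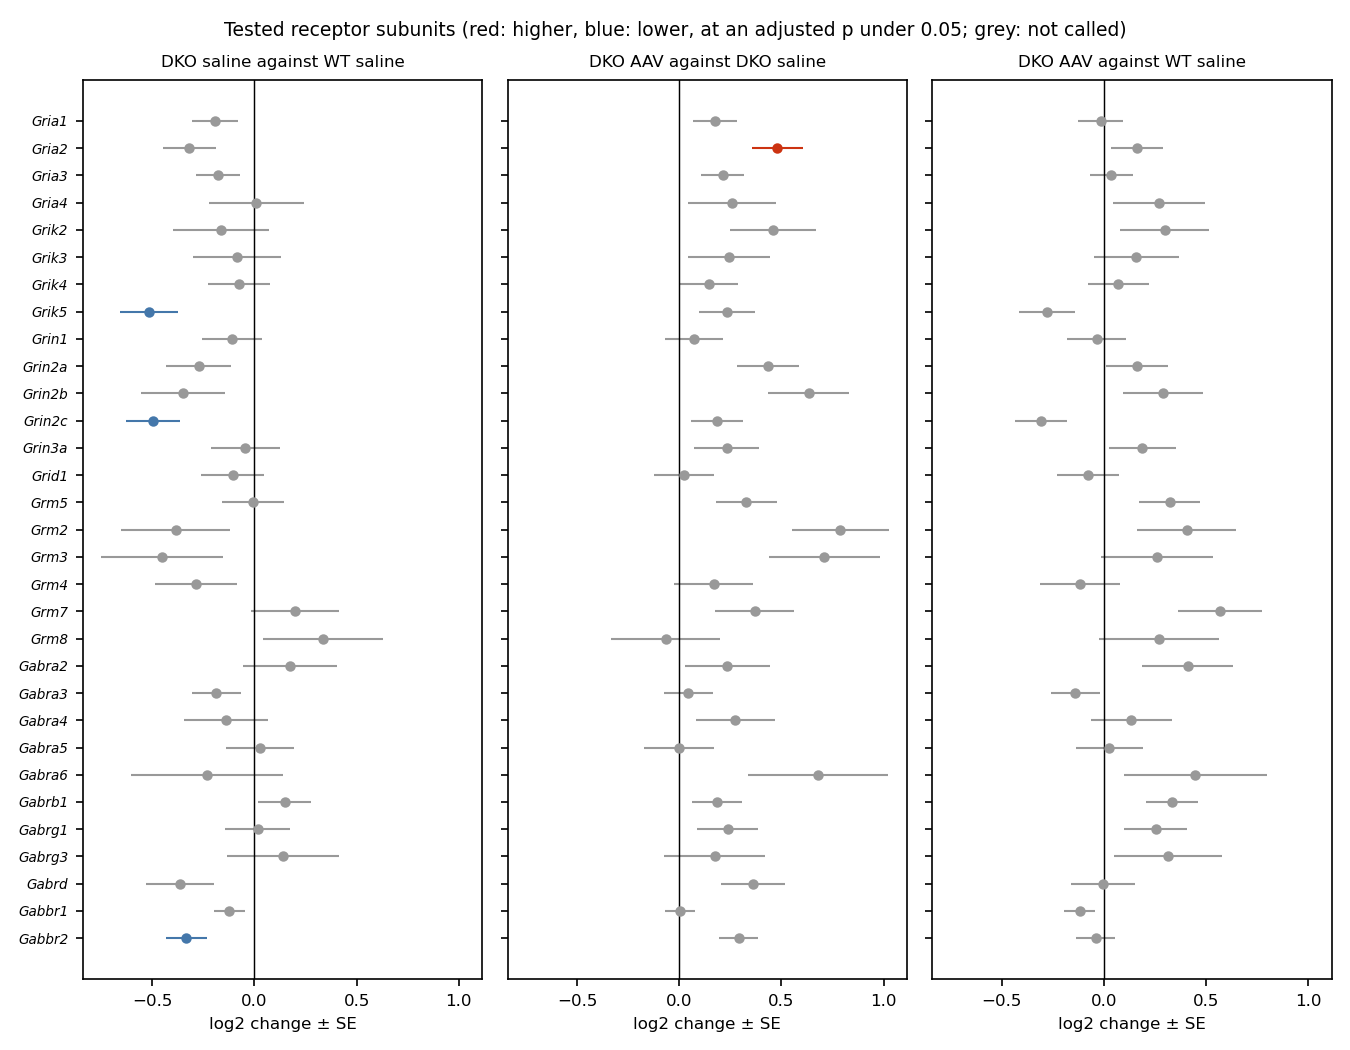
Log2 change ± SE of 31 of the tested subunits in 3 comparisons, with subunits ordered by receptor class; red marks a higher and blue a lower level at an adjusted p under 0.05 in edgeR's quasi-likelihood test, and grey the rest. In the middle panel 29 of 31 points lie above 0, and Gria2 is called.

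**Figure D5:**
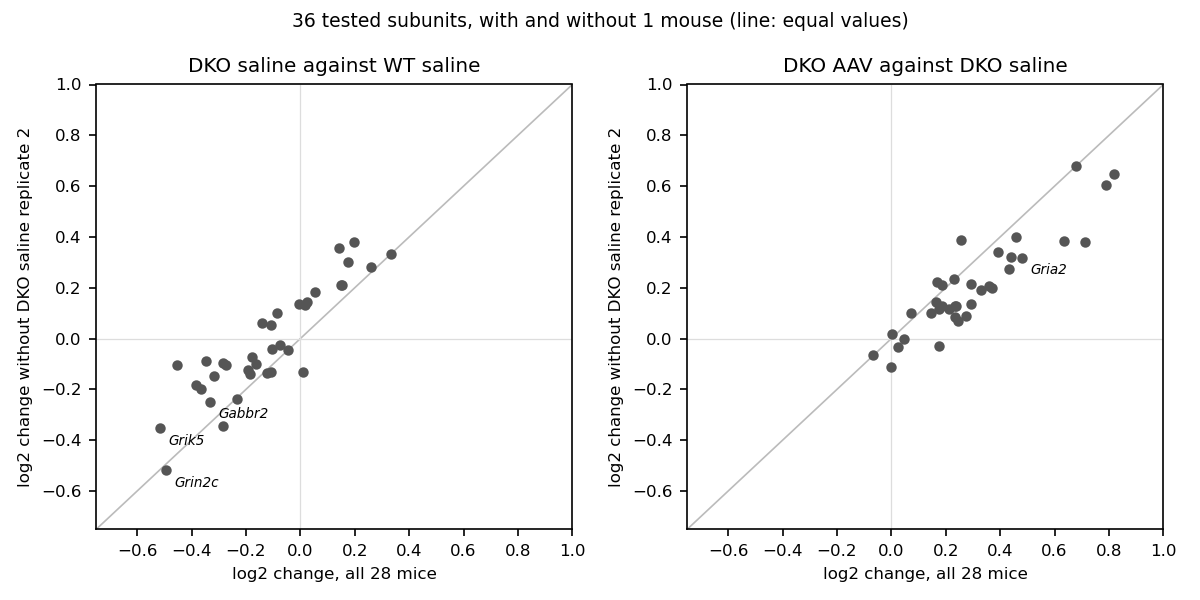
Log2 change of the 36 tested subunits with all 28 mice against the same value without DKO saline replicate 2, in the genotype comparison of saline mice and in the comparison of DKO groups; the line marks equal values. The change of Gria2 on treatment was 0.48 with that mouse and 0.32 without it.

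The spread by class in the treatment comparison was broad. All 4 tested AMPA subunits, all 4 tested kainate subunits and all 5 tested NMDA subunits had positive changes, with class medians of 0.24, 0.24 and 0.23 on the log2 scale. The 2 group II receptors, Grm2 and Grm3, had changes of 0.79 ± 0.24 and 0.71 ± 0.27 (SE), and the 6 alpha subunits ran from -0.00 for Gabra5 to 0.68 for Gabra6, and none of these was called. Grin2b, which fell to 24.4 CPM in DKO saline replicate 2 and lay between 79.4 and 148 CPM in the other DKO saline mice, had a change of 0.63 ± 0.20 (SE), with an adjusted p of 0.07 in edgeR's quasi-likelihood test. Grm3, also an astrocyte receptor, was at 1.18 CPM in that mouse and between 6.71 and 15.3 CPM in the others.

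In WT mice, of 36 subunits 0 were called on treatment by edgeR's quasi-likelihood test, as were 0 of all genes tested (0%). DESeq2 also called 0 subunits and 0 genes. In edgeR's test 0 subunits had an unadjusted p under 0.05, against 2.28% of all genes. The median log2 change of the subunits was 0.04, with 23 of 36 positive. The difference of the vector's effect between genotypes was tested itself, and 0 subunits were called by edgeR's quasi-likelihood test, against 0.018% of all genes. An unadjusted p under 0.05 was found for 6 subunits (16.7%), against 11.4% of all genes, for 4 without DKO saline replicate 2 and for 3 without the 3 libraries of low regional score. DESeq2 called 0. For Gria2 the difference was 0.49 ± 0.18 (SE), with an adjusted p of 0.311.

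Treated DKO mice were also set against WT saline mice, which asks what still differed from untreated wildtype. Here 2 of 36 subunits were higher and 0 lower, against 1.43% higher and 3.82% lower, 5.25% in all, among all genes tested. This comparison shares its control mice with the genotype comparison and its treated mice with the treatment comparison. Gabra6 had a log2 change of 0.45 ± 0.35 (SE), with an adjusted p of 0.522 in edgeR's quasi-likelihood test, and Gria2 one of 0.16 ± 0.13 (SE), with an adjusted p of 0.52. In the same comparison Grik5 had -0.28 ± 0.14 and Grin2c -0.31 ± 0.13 (SE), with adjusted p-values of 0.255 and 0.171 in edgeR's quasi-likelihood test. For Grin2c, 7 of 7 DKO AAV mice lay at or below the WT saline median. With the region scores as terms both were called, at adjusted p-values of 0.0235 and 0.00198.

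Of the subunits tied to other places, Gabra5, Grik4, Gabrg1 and Gabrd were tested and not called in any comparison. Gabra5 stood at medians of 35.0, 33.4, 35.5 and 33.6 CPM with saline and vector in WT mice and with saline and vector in DKO mice, with ranges of 26.4 to 39.7, 26.8 to 46.9, 23.6 to 45.3 and 21.5 to 53.3 CPM. Grik4 stood at medians of 17.5, 17.8, 16.3 and 17.0 CPM, with ranges of 11.4 to 19.0, 13.9 to 20.8, 12.2 to 17.9 and 13.9 to 20.4 CPM. Gabrg1, known from hypothalamus and brainstem, stood at medians of 37.8, 34.3, 32.3 and 39.0 CPM, and Gabre and Gabrq, known from the same places, had means of 0.638 and 1.48 CPM over all mice and were not tested. Gabrd, which is extrasynaptic, stood at medians of 29.6, 34.8, 25.7 and 36.1 CPM, with a change of -0.36 ± 0.17 (SE) on genotype that was not called. For the 4 tested subunits the groups overlapped.

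Genes that work with the receptors were counted as a list chosen with earlier results in view. In the saline genotype comparison, 1 of 13 tested AMPA and kainate auxiliary genes and 4 of 17 tested postsynaptic scaffold genes were lower, and none was higher in either list, against 3.27% lower among all genes tested. The auxiliary gene was Cacng2 (stargazin), at -0.65 ± 0.18 (SE), with an adjusted p of 0.0203 in edgeR's quasi-likelihood test. The scaffolds were Dlg2 at -0.59 ± 0.11, Shank1 at -0.51 ± 0.11, Dlgap3 at -0.73 ± 0.17 and Dlgap4 at -0.40 ± 0.10 (SE). Between the vector groups 6 of 17 scaffolds were lower, against 3.96% of all genes tested. Among them were Shank1 at -0.66 ± 0.11, Dlg4 (PSD-95) at -0.76 ± 0.14, Dlgap4 at -0.41 ± 0.10 and Dlgap3 at -0.65 ± 0.16 (SE). Gabarap, which binds GABA-A receptors and takes part in autophagy, was higher in the DKO mice given saline, at 0.33 ± 0.09 (SE). In treated DKO against DKO saline mice Cacng2 rose by 0.59 ± 0.17 (SE), with an adjusted p of 0.0426 in edgeR's quasi-likelihood test, and 0 of 17 scaffolds were called. No values without DKO saline replicate 2 are given for these lists, and the part of that mouse in their calls was not tested. Without it the genes called among all genes went from 336 to 54 in this comparison and from 767 to 410 between the saline groups. In DKO AAV against WT saline mice 5 of 17 scaffolds were lower and 0 higher, against 3.82% lower and 1.43% higher among all genes tested. Of 13 auxiliary genes 1 was higher and 1 lower. Of 8 genes of glutamate transport and turnover 1 was lower, as was 1 of 9 genes of GABA-A clustering and trafficking. Of 6 genes of GABA synthesis and transport 1 was higher. This was Gad1, which makes GABA, at 0.56 ± 0.16 (SE), with an adjusted p of 0.0343 in edgeR's quasi-likelihood test. The summed levels of 6 microglial markers had medians of 410 CPM in WT saline, 699 in DKO saline and 487 in DKO AAV. Those of 6 oligodendrocyte markers were 9303, 6107 and 6417 CPM in the same groups, and the part of these shifts in the subunit differences was not tested.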

How the data were processed

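RNA of 1 hemibrain per mouse was measured by QuantSeq 3' tag sequencing with molecular identifiers, per the labels' protocols. The build was GRCm38.p6, and STAR and edgeR 3.40.2 in R 4.2 are among the tools named, per the submitters' processing notes. For the counting step, program and strand setting were not given in the sources used here. Each value of the deposited table of 100 or more carries 2 significant digits, so the authors' counts are rounded. A deposited normalized CPM sheet, a signal scaled by the authors' library factors, was used in 1 alternative. A normalization factor per library, a score the authors recorded in the deposited sample sheet, was only looked at. The table's totals differed from the totals recorded there by at most 0.16%.

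edgeR 4.0.16 (R 4.3.3) fitted the counts of all 28 mice with TMM scaling and group, sex and batch as terms. filterByExpr kept 11123 genes (minimum count 10). Quasi-likelihood tests were adjusted by Benjamini-Hochberg over all genes tested, with a threshold of 0.05. CPM values use the same scaling. The test was tested on simulated data, with changes put into the DKO saline group. It recovered 32 of 50 genes changed 1.5-fold and 49 of 50 changed 2-fold, and smaller changes were not simulated. The changed genes had mean counts over 10. All genes shared the same spread between mice, and no batch, sex or regional differences were simulated. The recovery therefore does not give the power for single subunits in the real libraries. Region scores are mean log2 CPM (prior count 2) of tested markers, relative to WT saline. Correlations used 100000 permutations. Alternatives used DESeq2 1.42.0, limma 3.58.1, other scalings, filters and terms, and left out each library or batch. Members and gene lists were chosen with earlier results of these data known. Named with values per group are members called in any comparison, region-tied members and the highest of each class. Some members are counted but not reported here.

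Mice are separate animals, numbered in accession order. Gene models of some members, Gabra4, Gabra5 and Gabrb1 among them, overlap other genes on the opposite strand, and the strand setting of the counting being unknown, their reads may not be fully separated.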

Additional observations from a re-analysis of the deposited data

Results flagged for a closer look

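Among 18 named subunits in 4 groups, 72 sets of 7 mice were checked for a mouse far from the rest, and 6 were marked, where chance marks about 1 in 20. The mouse lay outside the others by more than 0.568 of the group's range. WT saline replicate 6, the library of lowest cerebellar score, held 3 of the 6. Its Grin2b level was 182 CPM, against 90.5 to 105 CPM in the other WT saline mice. Its Grm5 level was 235 CPM, against 114 to 141 CPM, and its Grin2c level was 53.1 CPM, against 80.8 to 98.8 CPM. WT AAV replicate 7, the other library of low cerebellar score, had Grm4 at 35.4 CPM, against 72.6 to 96.2 CPM. Grm3 stood at 22.1 CPM in WT saline replicate 4, against 9.42 to 14.1 CPM. Gabre stood at 2.47 CPM in WT saline replicate 3, against 0 to 0.879 CPM, a level of few counts.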

How the results depend on the processing

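No paired analysis was possible because replicates were numbered in accession order and the numbers pair no mice. The 42 alternatives were compared by the number of subunits called. The number of all genes called in the same fit follows in parentheses. Both numbers moved between settings, and a count of subunits is to be read beside that of all genes. The main fit tested 11123 genes, and the fit with no filter 24919. DKO saline against WT saline gave 3 (767) in the main analysis and 1 to 3 (410 to 925) with each mouse left out. It gave 1 (1183) with library totals as scaling and 0 (349) with only the compared groups fitted. Leaving out batch 2 gave 0 (243), and leaving out batch 3 gave 0 (526). It gave 5 (1173) without batch 4. It also gave 5 (913) without the 14 libraries of atypical regional content, 2 of these subunits higher and 3 lower. DKO AAV against DKO saline gave 2, and 0 to 8 with each mouse left out; it gave 8 with no filter on low counts, 7 with only the compared groups, 6 without batch 1, 1 with group alone as term, 1 with limma on the deposited CPM, and 0 with the region scores as terms, without the 3 libraries of low regional score, without the atypical libraries, and without batch 2, 3 or 4. DKO AAV against WT saline gave 2 (584), and 1 to 5 (271 to 898) with each mouse left out. It gave 6 with library totals (1217), with no filter (686) and without the 3 libraries (1174). With the region scores as terms it gave 7 (1056), and without the atypical libraries 8 (955). It gave 1 with group alone as term (319) and without batch 1 (393), 2 (189) or 3 (226). DKO AAV against WT AAV gave 2 (659), and 1 to 6 (239 to 927) with each mouse left out. It gave 6 with library totals (992) and with the region scores (1000). It gave 8 with no filter (772), with only the compared groups (901) and without the 3 libraries (865). Without the atypical libraries it gave 4 (528). It gave 1 with group alone as term (233) and without batch 1 (368), 2 (316) or 3 (219). The difference of the vector's effect gave 0 (2), and 2 (156) with no filter. Fewer mice or another set of tested genes is part of these alternatives, and the cause was not tested otherwise.

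The median genotype change of the subunits between saline groups was -0.12 and turned positive without the atypical libraries (0.15) and without batch 2 (3.5e-05), the batch of DKO saline replicate 2. Within single batches the sign turned for Gabbr2 on genotype in batch 1 (0.068) and Gria2 on treatment in batch 1 (-0.0022). With library totals the median of all genes was 0.12 on genotype and 0.15 in DKO AAV against WT saline, beside 0.00 and 0.01 with TMM. By Pearson's test alone 22 pairs of a subunit and a region score passed, and 7 without the 2 mice farthest from each score's median. In the comparisons that called them, Grik5 was called in 36 of 42 alternatives, Grin2c in 35, Gria2 in 29 and Gabbr2 in 25. Their calls were lost in 6, 7, 13 and 17 alternatives. Of the 42, 28 left out 1 mouse each, also mice of groups outside the comparison. Leaving out such an outside mouse ended none of these calls, so those fits say little about how firm a call is. Batches of 1 to 4 mice per group, counts rounded to 2 digits and 3' tags limit what single subunits can show.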
